A study of Mus musculus with 11 samples.

Results

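The genes described here, apart from the non-coding Eif2c5, encode translation initiation factors or related proteins, the kinases that phosphorylate the initiation factor eIF2, and the proteins that bind the cap-binding factor eIF4E. They were taken as all genes whose annotated symbol starts with Eif1, Eif2, Eif3, Eif4, Eif5 or Eif6, with pseudogenes left out, on probe sets that carry a single symbol. The rule gave 50 of the 22180 genes measured and used no measured value other than the choice, per gene, of the probe set with the highest mean signal. Microarrays were run on line 720, T-cell acute lymphoblastic leukaemia cells that the labels trace to a Tcf12+/- mouse in which the Lck promoter drives a Tal1 transgene. All cultures received, for 8 h, a compound that the labels call a Runt domain inhibitor, named for the region through which RUNX factors bind DNA. The groups were AI-9-54 at 50 µM (4 arrays, replicates 1 to 4), AI-8-45 at 100 µM (4 arrays, replicates 1 to 4) and AI-7-54 at 100 µM (3 arrays, replicates 1, 3 and 4). Vehicle-treated cells were not analysed here, and each difference sets a compound against another compound. AI-9-54 was used at another dose than both others, so its compound and its dose cannot be told apart, whereas AI-8-45 and AI-7-54 were used at the same dose. Whether replicates were separate cultures is not stated in the labels. The p-values therefore rest on the variation among the arrays at hand, and that variation may be technical.

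Initiation begins when eIF2, loaded with GTP and initiator tRNA, joins the small ribosomal subunit together with eIF1, eIF1A, eIF3 and eIF5. The eIF4F complex, made of the cap-binding protein eIF4E, the helicase eIF4A and the scaffold eIF4G, brings this assembly to the capped mRNA, and eIF5B then joins the large subunit at the start codon. The exchange factor eIF2B reloads eIF2 with GTP. Kinases that sense endoplasmic reticulum stress (PERK), amino acid shortage (GCN2), double-stranded RNA (PKR) or haem shortage (HRI) phosphorylate eIF2 and thereby block eIF2B, which lowers general translation and favours a few mRNAs such as that of Atf4. Hypophosphorylated eIF4E-binding proteins, which mTORC1 inactivates, keep eIF4E away from eIF4G.

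Promoter sequence was shown for 4 members, as the 250 bases before a RefSeq transcription start (assembly GRCm38.p6, 5′ to 3′ on the gene's strand). Eif2ak3 encodes PERK, and Eif1b, Eif4e and Eif5a encode factors that were lower with AI-9-54 than with AI-7-54. Capitals mark CACGTG, the palindromic E-box core read by MYC, MAX and related factors. Eif1b, Eif4e and Eif5a were chosen from the 5 lower genes whose windows hold CACGTG, out of 12 lower genes with a window. Their sequences are therefore not typical of the lower genes. Eif2ak3 lies at chr6:70844265-70844514 (plus strand), Eif1b at chr9:120492356-120492605 (plus strand), Eif4e at chr3:138527018-138527267 (plus strand, the second of 2 annotated starts) and Eif5a at chr11:69921387-69921636 (minus strand, the second of 6 annotated starts). For Eif4e and Eif5a a start whose window holds CACGTG was chosen for display, whereas the other Eif4e window and 3 of the 6 Eif5a windows hold none.
Eif2ak3: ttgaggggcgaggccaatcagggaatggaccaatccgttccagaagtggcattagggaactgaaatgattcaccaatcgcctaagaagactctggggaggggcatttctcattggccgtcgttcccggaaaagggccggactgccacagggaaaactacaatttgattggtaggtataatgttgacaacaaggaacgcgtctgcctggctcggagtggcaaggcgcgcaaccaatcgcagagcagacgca
Eif1b: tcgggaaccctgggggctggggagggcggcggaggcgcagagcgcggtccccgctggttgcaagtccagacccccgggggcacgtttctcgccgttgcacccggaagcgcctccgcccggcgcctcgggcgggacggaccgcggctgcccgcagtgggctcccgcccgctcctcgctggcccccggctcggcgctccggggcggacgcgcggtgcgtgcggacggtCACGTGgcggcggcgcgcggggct
Eif4e: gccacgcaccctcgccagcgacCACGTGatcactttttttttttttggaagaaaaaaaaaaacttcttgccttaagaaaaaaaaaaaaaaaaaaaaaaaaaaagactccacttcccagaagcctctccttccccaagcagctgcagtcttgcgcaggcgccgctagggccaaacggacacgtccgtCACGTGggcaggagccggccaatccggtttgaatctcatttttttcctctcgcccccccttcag
Eif5a: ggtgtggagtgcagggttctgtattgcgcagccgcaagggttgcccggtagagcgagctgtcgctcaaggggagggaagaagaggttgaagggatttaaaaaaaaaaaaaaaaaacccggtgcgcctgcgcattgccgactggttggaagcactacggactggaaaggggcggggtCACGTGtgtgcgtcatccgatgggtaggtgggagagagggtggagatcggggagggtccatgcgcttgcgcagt

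A promoter window was listed for 40 of the 50 genes, and CACGTG was found in 8 of them (20%), against 6.86% of the 27025 genes with a window. The 8 were Eif1b, Eif3f, Eif3k, Eif4a1, Eif4e, Eif4h, Eif5a and Eif5a2. Of the 12 genes with a window that were lower with AI-9-54 than with AI-7-54, 5 held it (Eif1b, Eif4a1, Eif4e, Eif4h and Eif5a). TGTGGT, the core bound by RUNX factors, was searched on both strands and found in 4 of the 40 windows (10.0%), those of Eif3a, Eif4a3l1, Eif5a2 and Eif5b, against 15.9% of all genes. TGATGNAA, the composite element bound by ATF4 with C/EBP partners, was searched likewise and matched 0 of the 40, against 3.91% of all genes. CACGTG reads the same on both strands. Where a gene had several starts, a match in any window counted. The number of starts was not compared between these genes and all genes. Shares of all genes were not limited to measured or bright genes, so a difference from them is not a result about initiation factors alone. The matches describe letters only, and binding was not measured.

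Signal was summarised as 1 log2 value per probe set and array, and array medians lay between 6.61 and 6.68. The T-cell receptor genes Cd3e, Cd3g and Cd3d were bright, whereas the coreceptor genes Cd4 and Cd8a were below the median probe set. Of the 10 measured T-cell markers, 5 were lower with AI-9-54 than with AI-7-54 (Cd2 by -0.81, Cd5 by -0.60, Ptcra by -0.53, Thy1 by -0.50 and Cd8b1 by -0.32, adjusted p up to 0.038). Of all genes, 7.29% were lower in that comparison at an adjusted p under 0.05 (limma). Among genes brighter than the median probe set, tested by themselves, the share was 14.8%. With AI-8-45, Cd5 was lower than with AI-7-54 (-0.69), and Thy1 was lower with AI-9-54 than with AI-8-45 (-0.36). In these comparisons 3.53% and 0.6% of all genes were lower. The 4 measured B-cell markers were all below that median too. The single erythroid marker measured, Klf1, was at 6.17, and 4 of the 5 myeloid markers were below the median. The 5 stromal and endothelial markers lay between 6.84 and 11.31, with Pecam1 highest, and 0 of the 15 genes of these non-T lists differed between compounds at an adjusted p under 0.05 in limma, with at most 2 at an unadjusted p under 0.05 in a comparison. The part of the T-cell and other markers in the results below was not tested.

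Most initiation factor genes gave a strong signal. Their mean over the 11 arrays ran from 5.18 (Eif2s3y) to 12.8 (Eif3f), and 46 of the 50 lay above 6.65, the median of all probe sets. The spread between arrays of a group was small, with a median pooled SD of 0.08 on the log2 scale. Eif4g2, which encodes a scaffold related to eIF4G that lacks the eIF4E-binding region, was the steadiest named here, between 12.08 and 12.12 in all 11 arrays. Eif4ebp1 was the most variable, between 10.09 and 11.30.

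Most of the initiation factor genes called against AI-7-54 were lower, and the 1 called higher with either compound was Eif2ak3. The majority of the 50 did not pass the test, 39 with AI-8-45 and 33 with AI-9-54. With AI-8-45, 10 were lower and 1 higher among the 50 (22.0%), where 5.66% of all genes were called and 2.13% were called higher. The share called lower was 20% of the initiation factor genes and 3.53% of all genes. With AI-9-54, 16 were lower and 1 higher than with AI-7-54 (34.0%), where 14.2% of all genes were called. The share called lower was 32.0% here and 7.29% of all genes, and 6.87% of all genes were higher. Called means an adjusted p under 0.05 (limma, Benjamini-Hochberg over all genes). The comparisons with AI-7-54 share its 3 arrays, so a high or low AI-7-54 value enters both. In bulk RNA, fewer cells that express a gene and less of its RNA per cell cannot be told apart.

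The shifts were small. The median log2 difference of the 50 genes was -0.08 between AI-8-45 and AI-7-54 and -0.10 between AI-9-54 and AI-7-54, where the median of all genes was 0.00. Below zero lay 35 of the 50 in the first comparison, against 49.3% of all genes, and 41 of the 50 in the second, against 50.7%. Bright genes pass the test more often. Among the 12174 genes brighter than the median probe set, tested by themselves, 8.29% were lower with AI-8-45 than with AI-7-54 and 14.8% were lower with AI-9-54. Of the 46 initiation factor genes in that class, 13 (28.3%) and 18 (39.1%) were lower in these comparisons. The plot of called shares sets these beside each other. Fewer of the 50 were called when certain single arrays were left out. The share of all genes called in those fits is not given here, so these counts are not results about the initiation factors alone. The count for AI-8-45 against AI-7-54 became 3 without AI-7-54 replicate 3, 4 without AI-7-54 replicate 4 and 6 without AI-8-45 replicate 2. For AI-9-54 against AI-7-54 it became 10 without AI-7-54 replicate 3 and 10 without replicate 4. With the replicate number as a block in that comparison, 19 of the 50 and 14.9% of all genes were called.

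**Figure D1:**
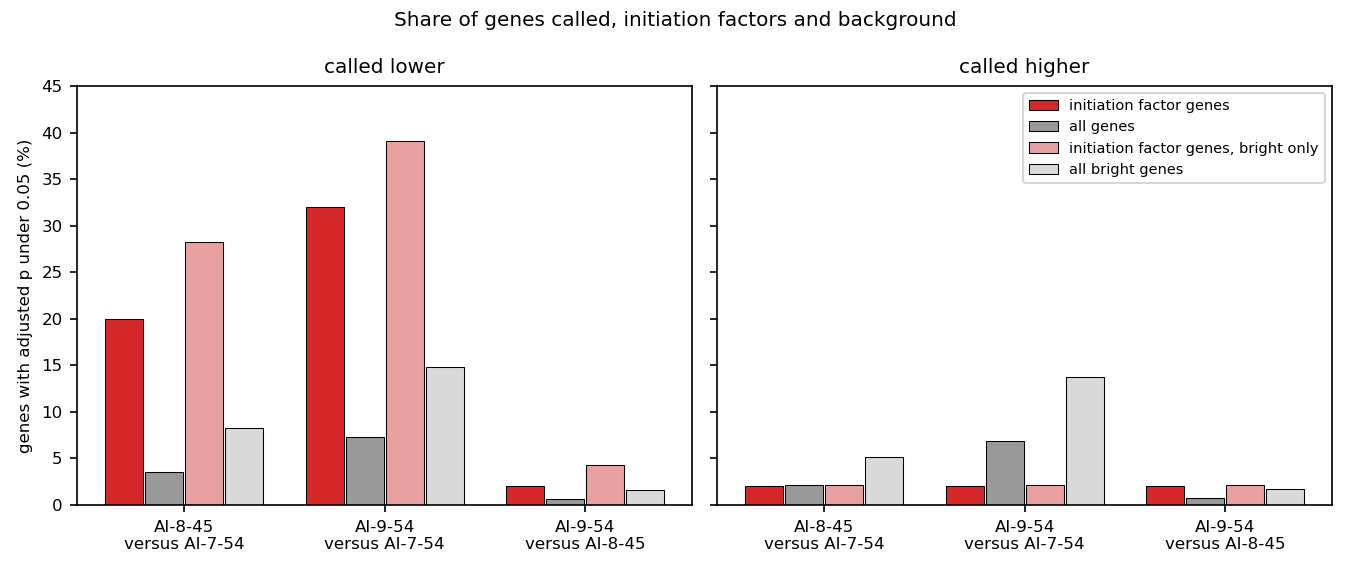
Share of genes (%) with an adjusted p under 0.05, called lower (left) or higher (right) in each comparison, for the initiation factor genes, all genes, and both again with only the genes brighter than the median probe set in the test. The bars for genes called lower reach 20% and 32.0% for the initiation factor genes against AI-7-54, above the 3.53% and 7.29% of all genes, and the bars for initiation factor genes called higher stand at 2.0% (1 gene) with all genes in the test.

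Between AI-9-54 and AI-8-45 few of these genes differed. Eif2ak3 was higher and Eif4a1 lower, 2 of 50 (4.0%), where 1.31% of all genes were called (0.708% higher and 0.6% lower). The median difference of the 50 was -0.01. An unadjusted p under 0.05 was reached by 5 of the 50.

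**Figure D2:**
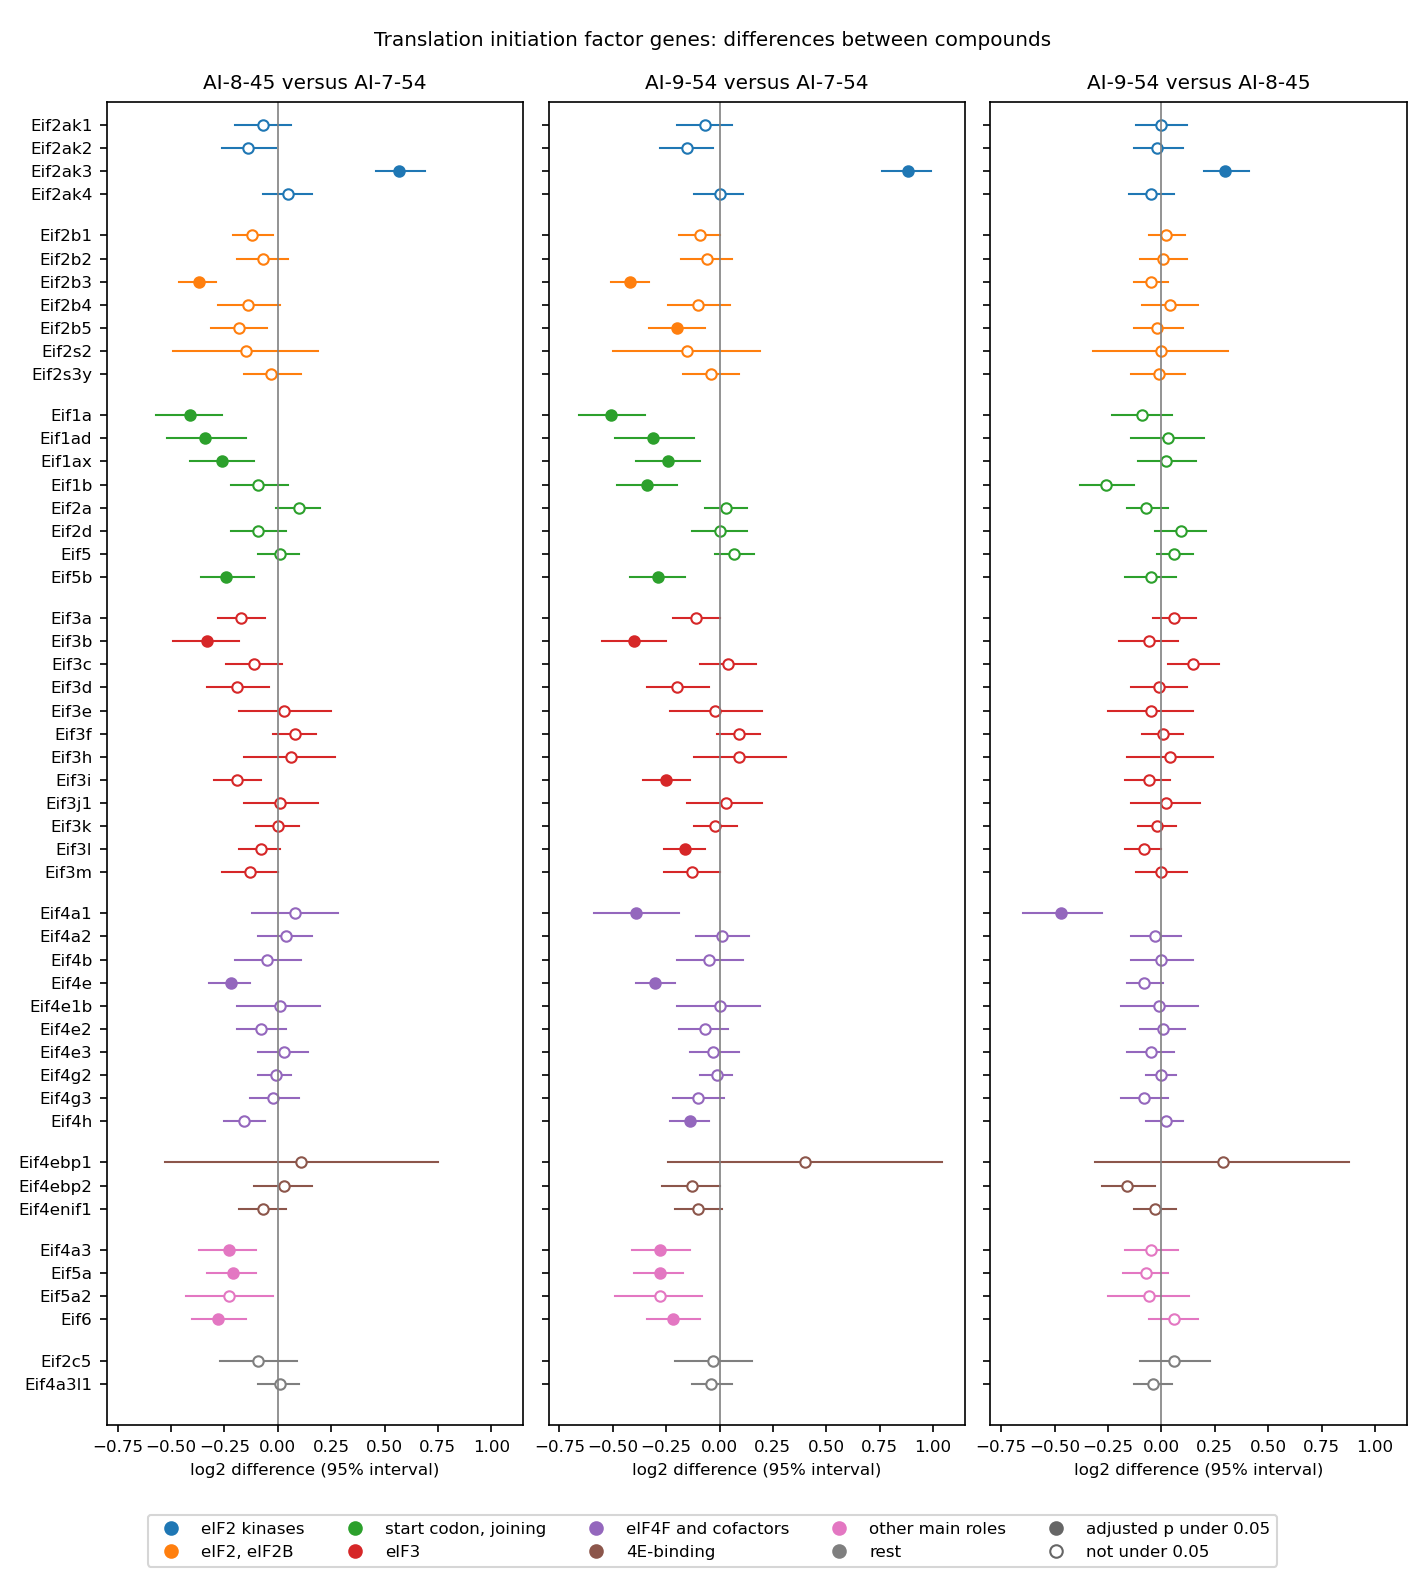
Log2 difference of each of the 50 genes (points) with its 95% interval (lines) in the 3 comparisons, grouped and coloured by role, with filled points for an adjusted p under 0.05. Eif2ak3 stands alone on the right in all 3 panels, at 0.57, 0.88 and 0.30, and the filled points on the left of the first 2 panels reach -0.41 and -0.51 for Eif1a.

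The kinase genes gave 1 clear difference. Eif2ak3, whose product PERK is the endoplasmic reticulum's eIF2 kinase, measured 11.09, 11.14, 11.25 and 11.24 with AI-9-54, 10.90, 10.90, 10.80 and 10.90 with AI-8-45, and 10.34, 10.22 and 10.34 with AI-7-54. Every AI-9-54 array lay above every AI-8-45 array, and every AI-8-45 array above every AI-7-54 array. It was 1.84-fold higher with AI-9-54 than with AI-7-54 (log2 difference 0.88, 95% interval 0.76 to 0.99, adjusted p = 1.17e-06). With AI-8-45 it was 1.49-fold higher than with AI-7-54 at the same dose (0.57, 0.46 to 0.69, adjusted p = 8.43e-05). AI-9-54 exceeded AI-8-45 by 1.23-fold (0.30, 0.20 to 0.41, adjusted p = 0.0121). These calls held with each of the 11 arrays left out in turn. Eif2ak3 was the 1 gene among the 50 called in all 3 comparisons.

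The other eIF2 kinase genes did not pass the test in any comparison, and only Eif2ak2 reached an unadjusted p under 0.05, in both comparisons with AI-7-54. Eif2ak2, encoding PKR, measured 7.96, 8.06, 8.15 and 8.15 with AI-9-54, 8.15, 8.11, 8.00 and 8.12 with AI-8-45, and 8.28, 8.21 and 8.21 with AI-7-54. The AI-7-54 arrays were the highest, without overlap, but the differences of -0.15 for AI-9-54 (adjusted p = 0.101) and -0.14 for AI-8-45 (adjusted p = 0.226) were not called. Eif2ak1, encoding HRI, averaged 9.56 ± 0.06 with AI-9-54, 9.56 ± 0.11 with AI-8-45 and 9.63 ± 0.06 with AI-7-54 (SD, n = 4, 4 and 3), and its groups overlapped throughout. Eif2ak4, encoding GCN2, averaged 8.54 ± 0.07, 8.59 ± 0.04 and 8.54 ± 0.08 in the same order of compounds. The interval of the AI-9-54 and AI-7-54 difference was -0.20 to 0.06 for Eif2ak1 and -0.12 to 0.11 for Eif2ak4.

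Genes for eIF2 and for eIF2B, the factor that reloads it, had 1 of 7 members lower with AI-8-45 than with AI-7-54 and 2 of 7 lower with AI-9-54. These are 14.3% and 28.6% in the test over all genes, against 3.53% and 7.29% of all genes. In a separate test of bright genes alone, 8.29% and 14.8% of those genes were lower. This role group was not counted in that test. The gene called in both comparisons was Eif2b3, for the gamma subunit of the catalytic part of eIF2B. It measured 9.31, 9.32, 9.26 and 9.34 with AI-9-54, 9.31, 9.34, 9.37 and 9.39 with AI-8-45, and 9.70, 9.73 and 9.76 with AI-7-54. All AI-7-54 arrays stood above all others, and the other 2 groups overlapped. Eif2b3 was 1.34-fold lower with AI-9-54 than with AI-7-54 (log2 difference -0.42, -0.51 to -0.33, adjusted p = 2.73e-05). With AI-8-45 it was 1.30-fold lower (-0.37, -0.46 to -0.29, adjusted p = 0.000231), and both calls held with any array left out. Eif2b5, for the epsilon subunit that catalyses the exchange, was lower with AI-9-54 by a log2 difference of -0.20 (adjusted p = 0.041), and 7 of the 11 fits with an array left out did not call it (adjusted p 0.0508 to 0.167 in those). Eif2b1, Eif2b2 and Eif2b4, for the regulatory subunits, had differences between -0.14 and -0.06 in these comparisons and were not called. Eif2s2, the beta subunit of eIF2, differed by -0.15 in both (-0.50 to 0.19 with AI-9-54 and -0.49 to 0.19 with AI-8-45), and Eif2s3y, the Y-linked gamma subunit, was dim at 5.18.

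Start codon selection and subunit joining had the largest share of calls among the role groups apart from the 4 genes whose products mainly act elsewhere. Of its 8 genes, 4 were lower with AI-8-45 and 5 with AI-9-54 than with AI-7-54, with group medians of -0.16 and -0.26. These shares of 50.0% and 62.5%, in the test over all genes, stand against 3.53% and 7.29% of all genes. In a separate test of bright genes alone, in which this role group was not counted, 8.29% and 14.8% of those genes were lower. Eif1a, for the scanning factor eIF1A, measured 9.40, 9.58, 9.34 and 9.44 with AI-9-54, 9.53, 9.58, 9.49 and 9.52 with AI-8-45, and 9.84, 10.11 and 9.89 with AI-7-54. The AI-7-54 arrays were the highest and did not overlap with either other group. Eif1a was 1.42-fold lower with AI-9-54 (-0.51, -0.66 to -0.35, adjusted p = 0.000448) and 1.33-fold lower with AI-8-45 (-0.41, -0.57 to -0.26, adjusted p = 0.00503), in both cases with any array left out too. Eif1ax, the X-linked gene for a nearly identical eIF1A, differed by -0.24 with AI-9-54 (adjusted p = 0.0353) and by -0.26 with AI-8-45 (adjusted p = 0.0428). Probes for such close copies may read each other's RNA, so the Eif1a and Eif1ax values may not be independent. The Eif1ax calls were lost in 4 and 8 of the 11 fits that left an array out (highest adjusted p 0.175 and 0.212). Eif1ad, for a protein with an eIF1A-like domain, was lower by -0.31 with AI-9-54 and -0.34 with AI-8-45 (adjusted p = 0.0291 and 0.0368), and 5 and 4 of those fits did not call it (highest adjusted p 0.109 and 0.123).

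Eif1b, for a close relative of the start codon fidelity factor eIF1, measured 10.92, 10.85, 10.74 and 10.81 with AI-9-54, 11.10, 11.07, 11.18 and 10.98 with AI-8-45, and 11.27, 11.16 and 11.07 with AI-7-54. The AI-9-54 arrays were the lowest, with no overlap, and the other 2 groups overlapped. The gene was 1.27-fold lower with AI-9-54 than with AI-7-54 (-0.34, -0.48 to -0.20, adjusted p = 0.00294). Against AI-8-45 the difference was -0.26 and was not called (adjusted p = 0.0579). With the replicate set as a term in the model, described further down, that adjusted p was 0.018. Eif5b, for the GTPase that joins the large subunit, was lower by -0.29 with AI-9-54 (adjusted p = 0.00556) and by -0.24 with AI-8-45 (adjusted p = 0.0337). The Eif5b call for AI-8-45 was lost in 5 of 11 fits with an array left out (highest adjusted p 0.141). Eif5, for the protein that triggers GTP hydrolysis on eIF2, averaged 12.11 ± 0.03 with AI-9-54, 12.05 ± 0.04 with AI-8-45 and 12.05 ± 0.05 with AI-7-54 and was not called. Eif2a and Eif2d, for factors that can bring tRNA to the ribosome without eIF2, had differences between -0.09 and 0.10 and were not called.

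**Figure D3:**
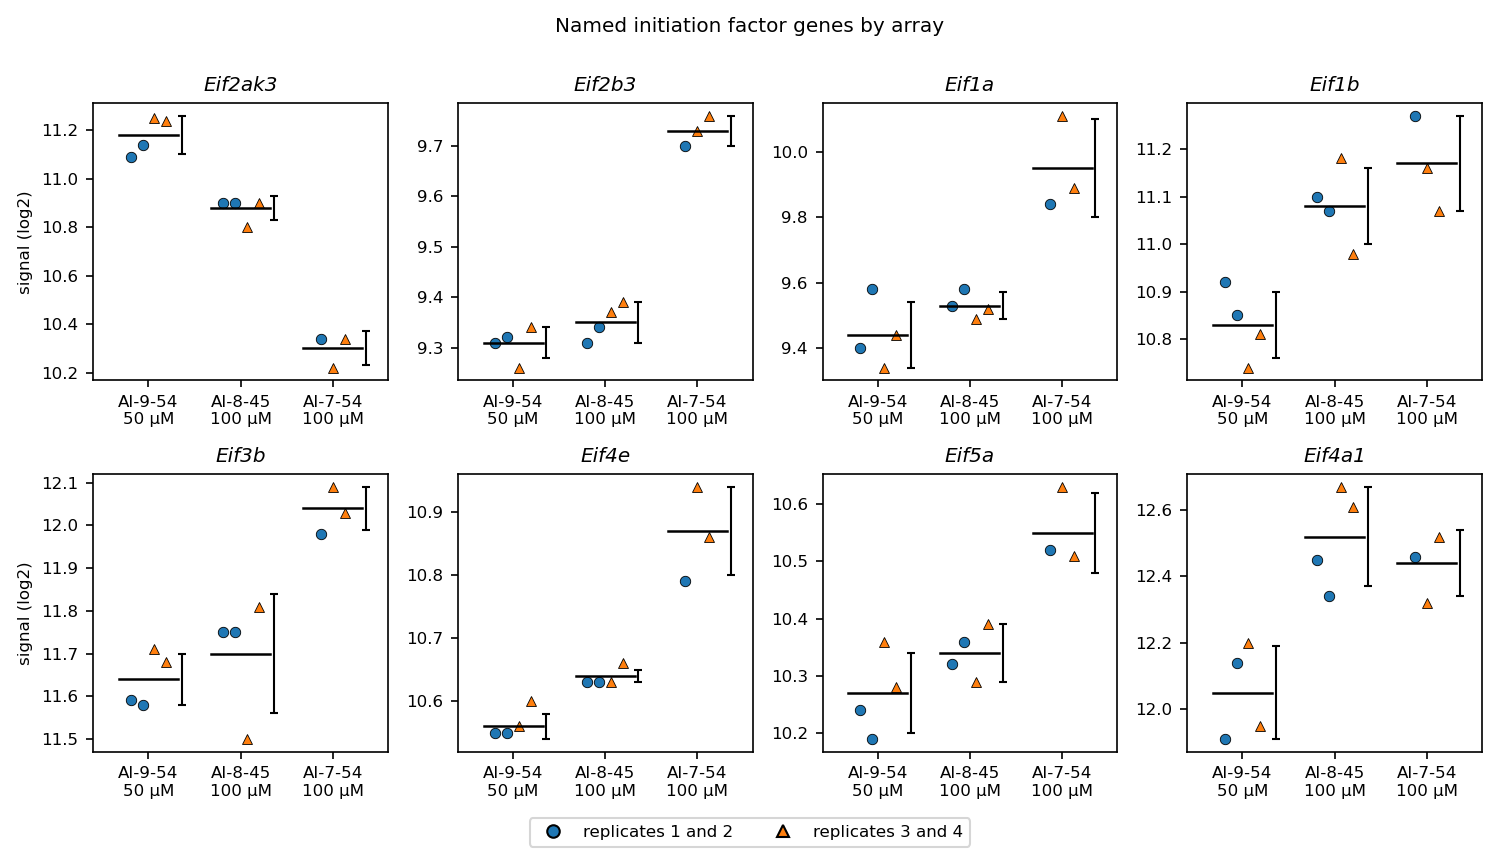
Log2 signal of 8 named genes in each array, with the compounds from left to right, circles for replicates 1 and 2 and triangles for replicates 3 and 4, horizontal lines for group means and bars for 1 SD (n = 4, 4 and 3). Eif2ak3 is highest with AI-9-54, intermediate with AI-8-45 and lowest with AI-7-54, Eif2b3, Eif1a, Eif3b, Eif4e and Eif5a are highest with AI-7-54, and Eif1b and Eif4a1 are lowest with AI-9-54.

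The 12 measured genes of eIF3, the large scaffold that holds the small subunit assembly together, differed among themselves. Eif3b, for a core scaffold subunit, measured 11.59, 11.58, 11.71 and 11.68 with AI-9-54, 11.75, 11.75, 11.50 and 11.81 with AI-8-45, and 11.98, 12.09 and 12.03 with AI-7-54. The AI-7-54 arrays were above all others. Eif3b was 1.32-fold lower with AI-9-54 (-0.40, -0.55 to -0.25, adjusted p = 0.00219) and 1.26-fold lower with AI-8-45 (-0.33, -0.49 to -0.18, adjusted p = 0.015). The AI-8-45 call was lost without AI-7-54 replicate 3 (adjusted p = 0.0816) or without AI-7-54 replicate 4 (adjusted p = 0.0591). Eif3b was the only eIF3 gene called between AI-8-45 and AI-7-54 (8.33% of the 12, against 3.53% of all genes lower), and 4 of the 12 had an unadjusted p under 0.05. With AI-9-54, 3 of the 12 were lower than with AI-7-54 (25.0%, against 7.29% of all genes). In a separate test of bright genes alone, 8.29% of those genes were lower with AI-8-45 and 14.8% with AI-9-54. The eIF3 genes were not counted in that test, and their 8.33% with AI-8-45 is close to its share. Between AI-9-54 and AI-7-54, Eif3i, for a subunit bound to eIF3b, was lower by -0.25 (adjusted p = 0.00569) and Eif3l, for a peripheral subunit, by -0.16 (adjusted p = 0.0215). The Eif3l call was lost without AI-7-54 replicate 3, AI-7-54 replicate 4 or AI-9-54 replicate 4 (adjusted p 0.0544 to 0.0896). Eif3d, for the subunit that can bind the cap of certain mRNAs, differed by -0.20 and was not called (adjusted p = 0.0695), but with the replicate number as a block it was (-0.22, adjusted p = 0.0259). The brightest gene of all 50, Eif3f, had positive differences of 0.09 with AI-9-54 and 0.08 with AI-8-45 that were not called, with intervals of -0.01 to 0.19 and -0.02 to 0.18.

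In the cap-binding group, Eif4e was lower with both compounds than with AI-7-54. It measured 10.55, 10.55, 10.56 and 10.60 with AI-9-54, 10.63, 10.63, 10.63 and 10.66 with AI-8-45, and 10.79, 10.94 and 10.86 with AI-7-54, and no 2 groups overlapped. The cap-binding gene was 1.23-fold lower with AI-9-54 (-0.30, -0.39 to -0.21, adjusted p = 0.000514) and 1.17-fold lower with AI-8-45 (-0.22, -0.32 to -0.13, adjusted p = 0.00918). Without AI-7-54 replicate 3 the AI-8-45 call for Eif4e was lost (adjusted p = 0.0558). The related genes Eif4e2 and Eif4e3, for other cap-binding proteins, and Eif4e1b, a germ-line relative, had differences between -0.08 and 0.03 and were not called. Eif4g3, for an eIF4G scaffold, and Eif4b, for a helicase cofactor, were not called either, with differences of -0.10 and -0.05 between AI-9-54 and AI-7-54. Eif4h, for the other helicase cofactor, was at the threshold with AI-9-54 (-0.14, adjusted p = 0.0499). Its call was lost in 10 of the 11 fits with an array left out (adjusted p up to 0.164) and with the replicate number as a block (adjusted p = 0.0891).

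Eif4a1, for the main eIF4A helicase, was lower with AI-9-54 than with both others, and it was the 1 gene of the 50 called lower against AI-8-45. It measured 11.91, 12.14, 12.20 and 11.95 with AI-9-54, 12.45, 12.34, 12.67 and 12.61 with AI-8-45, and 12.46, 12.32 and 12.52 with AI-7-54. Every AI-9-54 array was below every other array. The gene was 1.38-fold lower than with AI-8-45 (-0.47, -0.65 to -0.28, adjusted p = 0.022) and 1.31-fold lower than with AI-7-54 (-0.39, -0.59 to -0.19, adjusted p = 0.0135). The call against AI-7-54 was lost without AI-7-54 replicate 4 (adjusted p = 0.0689). That against AI-8-45 was lost without AI-8-45 replicate 1, 3 or 4 or AI-9-54 replicate 1 or 4 (adjusted p 0.0515 to 0.0665). A second Eif4a1 probe set, with a mean of 11.12, differed by -0.13 against AI-7-54 (adjusted p = 0.112 over all probe sets) and by -0.02 against AI-8-45 (adjusted p = 0.903). The probe sets therefore differed in size of change and in call. Eif4a2, for the second eIF4A, showed 0.01 on its brightest probe set, whereas its 2 dimmer ones were lower with AI-9-54 than with AI-7-54, by -0.73 (adjusted p = 0.00694 over all probe sets) and -0.19 (adjusted p = 0.0401).

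Of the 4 genes named as initiation factors whose products mainly act elsewhere, 3 were lower with each compound than with AI-7-54. That is 75.0% of the 4, against 3.53% of all genes with AI-8-45 and 7.29% with AI-9-54. In a separate test of bright genes alone, in which the 4 were not counted, 8.29% and 14.8% of those genes were lower. Eif5a, for the hypusine-carrying factor that helps ribosomes elongate and terminate, measured 10.24, 10.19, 10.36 and 10.28 with AI-9-54, 10.32, 10.36, 10.29 and 10.39 with AI-8-45, and 10.52, 10.63 and 10.51 with AI-7-54. The AI-7-54 arrays were above all others. Eif5a was lower by -0.28 with AI-9-54 (adjusted p = 0.00288, held with any array left out) and by -0.21 with AI-8-45 (adjusted p = 0.0319). The AI-8-45 call was lost in 6 of the 11 fits with an array left out (adjusted p 0.0576 to 0.166). Eif4a3, for the helicase of the exon junction complex, differed by -0.28 with AI-9-54 (adjusted p = 0.00901, lost without AI-7-54 replicate 3 at 0.0531) and by -0.23 with AI-8-45 (adjusted p = 0.0491, lost in 9 of the 11 fits, at up to 0.232). Eif6, for the factor that keeps free large subunits from joining, differed by -0.22 with AI-9-54 and -0.28 with AI-8-45 (adjusted p = 0.0221 and 0.0144). Those Eif6 calls were lost in 4 and 2 of the fits with an array left out (adjusted p up to 0.0883 and 0.0673). Eif5a2, the second eIF5A gene, differed by -0.28 with AI-9-54 and was not called (adjusted p = 0.0684), but with the replicate number as a block it was (-0.24, adjusted p = 0.00924).

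The genes for eIF4E-binding proteins and the eIF4E transporter were not called in any comparison (limma, 0 of 3), and an unadjusted p under 0.05 was reached only by Eif4ebp2 between AI-9-54 and AI-8-45. Eif4ebp1 measured 11.30, 11.19, 10.56 and 10.36 with AI-9-54, 11.07, 10.97, 10.12 and 10.09 with AI-8-45, and 10.89, 10.26 and 10.21 with AI-7-54. Replicates 1 and 2 were higher than replicates 3 and 4 in every group, with no overlap between these replicate sets. The labels give no batch for these sets. With the replicate set as a term in the model, 17 of the 50 genes were called between AI-8-45 and AI-7-54 (8.79% of all genes), 20 between AI-9-54 and AI-7-54 (18.2%) and 4 between AI-9-54 and AI-8-45 (3.68%). The difference of 0.40 between AI-9-54 and AI-7-54 (-0.24 to 1.04, adjusted p = 0.496) became 0.27 with the replicate number as a block (adjusted p = 0.0233) and 0.26 with the replicate set as a term (adjusted p = 0.0153). Within replicates 1 and 2 it was 0.35, and within replicates 3 and 4 it was 0.22. Against AI-8-45 the AI-9-54 difference was 0.29 (adjusted p = 0.777, and 0.0224 with the replicate set as a term), with 0.22 within replicates 1 and 2 and 0.36 within replicates 3 and 4. Eif3e and Eif3h, for eIF3 subunits, were the other genes with all values of replicates 1 and 2 above all of replicates 3 and 4. These 3 of 50 (6.0%) stand against 2.98% of all genes with sets that did not overlap, in either direction. Eif4ebp2 averaged 11.32 ± 0.03 with AI-9-54, 11.47 ± 0.13 with AI-8-45 and 11.45 ± 0.05 with AI-7-54. Eif4enif1, for the transporter, had differences between -0.10 and -0.03.

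Genes that act on eIF2 phosphorylation or respond to it were measured beside the kinases. Of 11 genes translated or induced when eIF2 is phosphorylated, 5 were higher with AI-9-54 than with AI-7-54, 2 with AI-8-45 than with AI-7-54, and 2 with AI-9-54 than with AI-8-45. These are 45.5%, 18.2% and 18.2% of the list, against 6.87%, 2.13% and 0.708% of all genes called higher. With the replicate number as a block, 8 of the 11 were higher with AI-9-54 than with AI-7-54. The added genes were Chac1, for a glutathione-degrading enzyme (0.82, adjusted p = 8.04e-05, against 0.161 without the block), Atf4, for the transcription factor ATF4 (0.25, 0.00733, against 0.237), and Ddit4, for the mTORC1 inhibitor REDD1 (0.58, 0.0414, against 0.0811). Ddit3, for the stress transcription factor CHOP, measured 10.69, 10.74, 10.12 and 10.03 with AI-9-54, 9.66, 9.61, 9.53 and 9.39 with AI-8-45, and 9.07, 8.90 and 8.90 with AI-7-54. Its groups were in the same order as those of Eif2ak3 and did not overlap. The difference between AI-9-54 and AI-7-54 was 1.44 for Ddit3 (1.65 within replicates 1 and 2 and 1.17 within replicates 3 and 4), 1.10 for Atf5, a transcription factor gene, and 0.86 for Trib3, a pseudokinase gene. The call of Ddit3 between AI-9-54 and AI-8-45 (0.85, adjusted p = 0.0157) was lost without AI-8-45 replicate 4 (adjusted p = 0.0515). Between AI-8-45 and AI-7-54 the differences of 0.59 for Ddit3 and 0.32 for Atf5 were lost in 7 of the 11 fits with an array left out (adjusted p up to 0.171 and 0.17). Trib3 was higher in replicates 1 and 2 than in replicates 3 and 4 of each compound, and so were Ddit3, Atf4, Chac1, Asns, Sesn2 and Cebpg.

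Of 15 genes for eIF2 phosphatases and kinase regulators, 2 were higher and 2 lower with AI-9-54 than with AI-7-54. That is 26.7% of the list, against 14.2% of all genes. With only genes brighter than the median probe set in the test, 6 of the 15 were called (40.0%), against 28.6% of those genes. With the replicate number as a block, Hspa5, for the chaperone BiP, was called lower as well (-0.18, adjusted p = 0.037, against -0.16 and 0.0721 without the block). Ppp1r15a, for GADD34, the stress-induced subunit that directs a phosphatase to eIF2, measured 8.99, 9.10, 8.73 and 8.63 with AI-9-54, 8.58, 8.56, 8.18 and 8.51 with AI-8-45, and 8.51, 8.19 and 8.20 with AI-7-54. The AI-9-54 arrays were the highest and did not overlap with either other group. Its difference to AI-7-54 was 0.57 (adjusted p = 0.0103), and the call was lost without AI-7-54 replicate 3 (adjusted p = 0.0551) or replicate 4 (adjusted p = 0.0537). Impact, for an inhibitor of GCN2 activation, was higher by 0.40. Nck2, for an adaptor, was lower by -0.24, and Ppp1ca, for a phosphatase catalytic subunit, by -0.20 (lost without AI-7-54 replicate 1, adjusted p = 0.0558). For AI-8-45 against AI-7-54 limma called 0 of the 15, with 4 at an unadjusted p under 0.05.

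**Figure D4:**
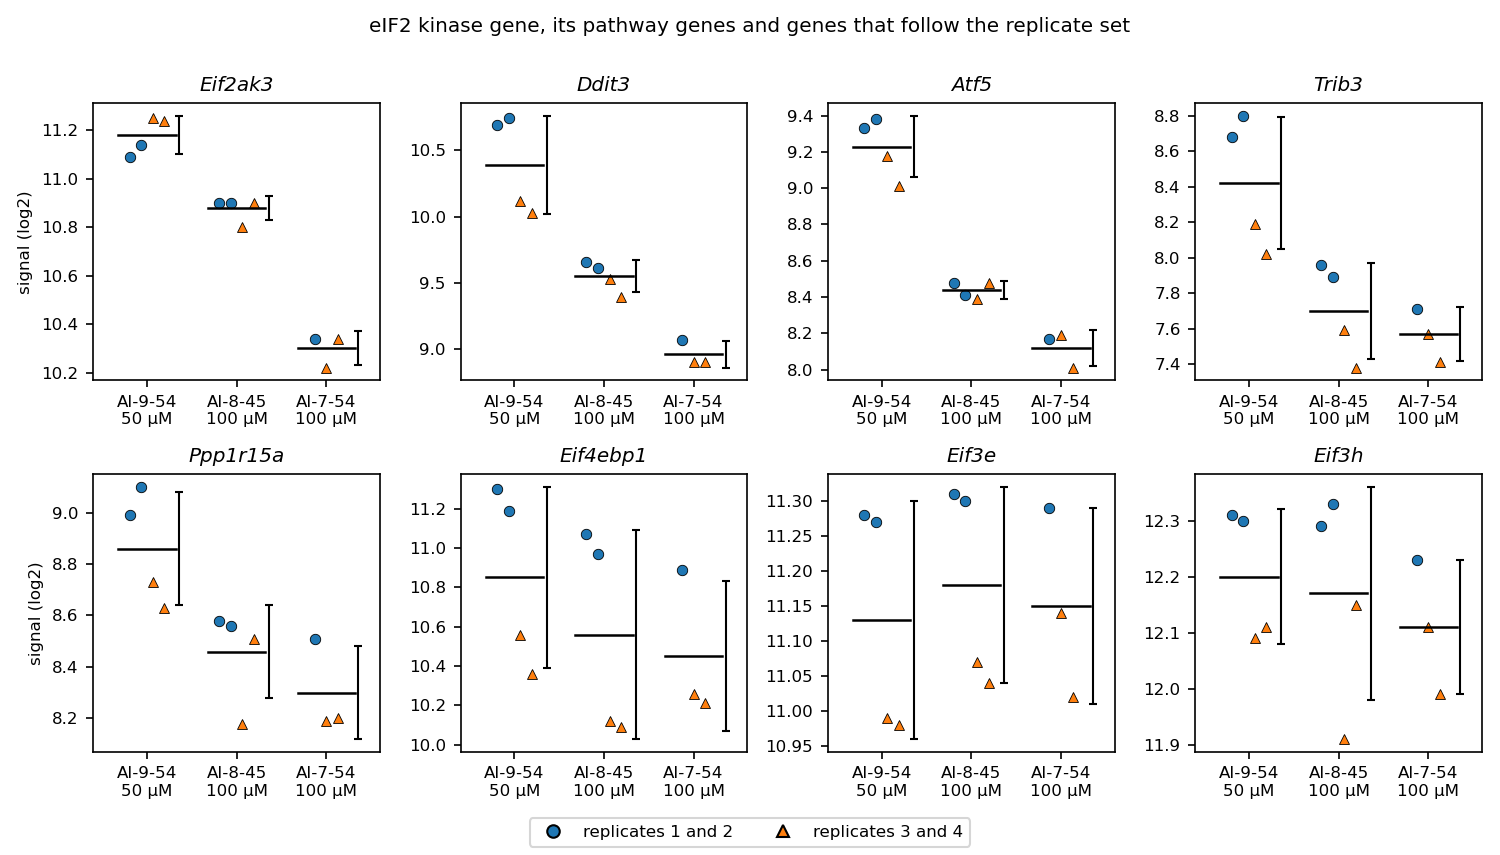
Log2 signal in each array of Eif2ak3, of called stress-response genes (Ddit3, Atf5, Trib3, Ppp1r15a) and of the genes whose replicate sets did not overlap (Eif4ebp1, Eif3e, Eif3h), with circles for replicates 1 and 2, triangles for replicates 3 and 4, lines for group means and bars for 1 SD (n = 4, 4 and 3). Ddit3 and Eif2ak3 are highest with AI-9-54 and lowest with AI-7-54, and in the Eif4ebp1, Eif3e and Eif3h panels every circle lies above every triangle.

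Among 13 measured genes of the mTORC1 and MNK kinases upstream of eIF4E, 2 were higher and 2 lower with AI-9-54 than with AI-7-54 (30.8%, against 14.2% of all genes), and 1 was higher and 1 lower with AI-8-45 (15.4%, against 5.66%). With only genes brighter than the median probe set in the test, the list's shares were again 30.8% and 15.4%. Of all those bright genes, 28.6% and 13.5% were called, so the list was close to that background. Deptor, for an mTOR-binding inhibitor, measured 10.59, 10.45, 10.86 and 10.78 with AI-9-54, 10.43, 10.45, 10.40 and 10.53 with AI-8-45, and 9.94, 9.95 and 9.98 with AI-7-54. The AI-7-54 arrays were the lowest, without overlap. Deptor was 1.64-fold higher with AI-9-54 (0.71, adjusted p = 0.000113) and 1.41-fold higher with AI-8-45 (0.49, adjusted p = 0.00413) than with AI-7-54. Tsc1, for an upstream inhibitor of mTORC1, was higher by 0.21 with AI-9-54 (adjusted p = 0.0168, lost without AI-7-54 replicate 3 or 4, at 0.077 and 0.0574). Rheb, for the GTPase that activates mTORC1, was lower with both compounds by -0.17 and -0.18, calls that were lost in 4 and 10 of the fits with an array left out (adjusted p up to 0.125 and 0.144). With the replicate number as a block neither Rheb call held (adjusted p = 0.0536 for AI-9-54 and 0.0699 for AI-8-45). Larp1, for a binder of terminal oligopyrimidine mRNAs, was lower by -0.22 with AI-9-54, and 9 of those fits did not call it (adjusted p up to 0.192).

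In the test over all genes, the called genes of initiation and elongation without the Eif prefix were all lower. Of 14 measured initiation genes, 4 were lower with AI-9-54 than with AI-7-54 (28.6%, against 7.29% of all genes) and 1 with AI-8-45 (7.14%, against 3.53%). With only bright genes in the test, 4 (28.6%, against 14.8% of those genes) and 3 (21.4%, against 8.29%) were lower. Abce1, for the ribosome recycling ATPase, measured 11.67, 11.65, 11.46 and 11.57 with AI-9-54, 11.72, 11.76, 11.62 and 11.71 with AI-8-45, and 11.92, 12.04 and 11.99 with AI-7-54, so that the AI-7-54 arrays were above all others. It was lower by -0.39 with AI-9-54 (adjusted p = 0.000695) and by -0.28 with AI-8-45 (adjusted p = 0.015), the second lost without AI-7-54 replicate 3 (0.0823) or 4 (0.062). Abcf1 and Denr, for factors that act with eIF2 and in ribosome recycling, were lower by -0.26 and -0.24 with AI-9-54, and the Abcf1 call was lost without AI-7-54 replicate 3 (adjusted p = 0.0505). Of 13 elongation and release factor genes, 6 were lower with AI-9-54 (46.2%, against 7.29% of all genes) and 3 with AI-8-45 (23.1%, against 3.53%) than with AI-7-54. With only bright genes in the test, 6 of 12 (50.0%, against 14.8% of those genes) and 5 of 12 (41.7%, against 8.29%) were lower. The block also called Eef2k, for the kinase of elongation factor eEF2, lower with AI-9-54 (-0.25, adjusted p = 0.0218, against -0.22 and 0.168 without it). Gspt1, for the release factor GTPase eRF3a, was lower by -0.38 and -0.26, and Tsfm, for a mitochondrial elongation factor, by -0.40 and -0.36. Dhps, for the enzyme that starts hypusine synthesis on eIF5A, was lower by -0.31 with AI-9-54 (adjusted p = 0.00679) and by -0.27 with AI-8-45 (adjusted p = 0.0303). The second Dhps call was lost in 5 of the 11 fits with an array left out (adjusted p up to 0.0971).

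The remaining members by the rule, Eif2c5, annotated as a long non-coding RNA, and Eif4a3l1, a gene resembling Eif4a3, were not called in any comparison. Eif1, Eif2s1, Eif3g and Eif4g1 were not on a probe set with a single symbol, and Eif2s3x, Eif3j2 and Eif4ebp3 were only on shared ones, so they were not analysed here. Of the 50 genes, 17 were called in at least 1 comparison and 33 in none.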

How the data were processed

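Total RNA from 11 samples of line 720 was amplified, labelled with biotin and hybridised to 1-colour Affymetrix whole-transcript arrays, per the labels' protocols. RMA and Partek 6.6 appear in the submitters' processing notes. In the deposited table there is 1 log2 value per probe set and array (3.23 to 13.8), on a scale read from the values. The genome build is not given in the sources used here. Of 41345 probe sets, 23521 had 1 gene symbol, 1814 several and 16010 were unnamed here. For each of 22180 genes the probe set of highest mean was used.

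A single model covered the 11 arrays (R 4.3.3 with limma 3.58.1, functions lmFit, contrasts.fit and eBayes, 8 residual and 4.14 prior degrees of freedom). Tests were two-sided, with Benjamini-Hochberg adjustment across the 22180 genes per comparison, and called at an adjusted p under 0.05. The script was tested on simulated data. Tables were summarised with pandas 2.3.3 and drawn with matplotlib 3.10.9 in Python 3.11.15.

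Members, role groups, pathway lists and alternatives were chosen with earlier results of these data known, among them the separation of replicates 1 and 2 from 3 and 4. The rule for named genes took all eIF2 kinase and eIF4E-binding protein genes, per comparison the 10 called genes that differed most each way, genes called in all 3, and up to 3 called genes each way per pathway list. Eif2b5, Eif3i, Eif3l and Eif4h, the other called genes, and all uncalled genes outside it were named after their values were seen. Same-numbered replicates are not described as sharing a culture or day. Their deviations from the group means correlated at 0.119 to 0.159 between AI-9-54 and AI-7-54 (3 pairs), at -0.023 to 0.451 between AI-8-45 and AI-7-54 (3 pairs) and at 0.07 to 0.363 between AI-9-54 and AI-8-45 (4 pairs). The number was used as a block in a model that covered all 3 comparisons, and the main tests did not use it. Different-numbered arrays of AI-9-54 and AI-7-54 correlated at -0.295 to 0.323 (9 pairs), a range that encloses that of the same-numbered ones. These correlations therefore do not show that the number pairs samples, and fits with the number as a block are given as alternatives. The number of arrays limits the precision. Promoter sequences came from RefSeq (assembly GRCm38.p6).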

Additional observations from a re-analysis of the deposited data

Results flagged for a closer look

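In groups of 4 arrays, 100 combinations of gene and group were examined for a single array far from the other 3, and 8 stood out, where chance gives about 1 in 20. In AI-9-54, replicate 1 was low for Eif2b4 (8.00, with the others at 8.17 to 8.20), and replicate 2 was high for Eif3i (10.56, with the others at 10.43 to 10.45). In AI-8-45, replicate 3 was low for Eif2ak3 (10.80, with the others at 10.90), for Eif3m (10.57, with the others at 10.78 to 10.81) and for Eif4g2 (12.08, with the others at 12.10). Replicate 1 of AI-8-45 was low for Eif2c5 (5.82, with the others at 6.10 to 6.13), replicate 2 was low for Eif4a3 (7.89, with the others at 8.05 to 8.06), and replicate 4 was high for Eif4e (10.66, with the others at 10.63).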

How the results depend on the processing

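Called counts moved with the replicate structure and with single arrays. For AI-8-45 against AI-7-54 (11 called), the count was 8 with the replicate number as a block, 17 with the replicate set as a term, 0 within replicates 1 and 2 (limma, with 9 at an unadjusted p under 0.05), 3 within replicates 3 and 4, and 3 to 11 with each array left out. For AI-9-54 against AI-7-54 (17 called), it was 19 with the block, 2 and 8 within the sets, and 10 to 17 with each array left out. For AI-9-54 against AI-8-45 (2 called), it was 4 with the block, 4 with the set as a term, 0 within either set (limma, with 6 and 7 at an unadjusted p under 0.05), 1 with only those 2 groups fitted, and 1 to 2 with each array left out. Fits within a set hold fewer samples. Of all genes, 5.66%, 14.2% and 1.31% were called in the 3 comparisons without these changes. With the set as a term the shares were 8.79%, 18.2% and 3.68%. The block called 14.9% of all genes between AI-9-54 and AI-7-54. Shares of all genes in the other fits are not given here, so those counts are not results about the initiation factors alone. The median difference of the 50 genes was -0.05 after quantile normalization again for AI-8-45 against AI-7-54, and its ranges over all alternatives were -0.11 to -0.05, -0.11 to -0.08 and -0.04 to 0.01 in the 3 comparisons. In the AI-8-45 and AI-7-54 comparison the block ended the calls of Eif1ad (adjusted p = 0.0521), Eif4a3 (0.0687) and Eif5a (0.0688). Centring the arrays ended the calls of Eif1ad (0.0513), Eif4a3 (0.0705) and Eif5b (0.0513) for AI-8-45, and of Eif2b5 (0.061) and Eif4h (0.0705) for AI-9-54, against AI-7-54. Quantile normalization ended those of Eif1ax with either compound (0.0637 for AI-9-54 and 0.0644 for AI-8-45), Eif3l (0.0966) and Eif4h (0.172), with no change of sign. Of 30 called differences, 13 held in every fit with an array left out and 1, Eif2ak3 between AI-9-54 and AI-7-54, held under all 22 alternatives. Differences that changed sign were near 0 and not called. For AI-9-54 against AI-8-45, Eif2ak1 (0.00) was -0.01 with array weights, -0.01 with quantile normalization, -0.04 within replicates 1 and 2 and -0.04 to 0.04 with an array left out, and Eif2ak2 (-0.02) was 0.09 within replicates 3 and 4 and -0.05 to 0.02 with an array left out. Eif2ak4 was -0.00 within replicates 1 and 2 for AI-8-45 against AI-7-54 (0.05), and -0.05 to 0.03 with an array left out for AI-9-54 against AI-7-54. For AI-8-45 against AI-7-54, Eif4ebp1 (0.11) was -0.02 with the replicate block, -0.03 with the set as a term, -0.13 within replicates 3 and 4 and -0.06 to 0.33 with an array left out, and Eif4ebp2 (0.03) was -0.10 within replicates 1 and 2 and -0.02 to 0.08 with an array left out. Eif2ak2 passed between AI-9-54 and AI-7-54 only after quantile normalization again (-0.17, adjusted p = 0.0317). The cause of these changes was not tested.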
